A study of Rattus norvegicus with 2 samples.

Results

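Pax2, Vax1, Sox2, Sox9, Nkx2-1, Zic1, Foxc1, Foxc2, Foxd1 and Tbx18 are transcription factors known from the development of the optic nerve, the ventral forebrain and the meninges. These 10 genes, of 25399 in the deposited tables, were chosen by name, and the cell classes were defined without them. They were described in single cells of the rat optic nerve, in 1 library from wild type (WT) rats and 1 from Nuc1 rats, which carry a spontaneous insertion mutation in the crystallin gene Cryba1. Both libraries came from animals labelled as postnatal day 7, the WT strain is Sprague Dawley, and the series title and the study's methods describe a mixed cell culture of the nerve. The sources differ here, since the design text speaks of harvested and digested nerve and the study's general culture methods name younger pups. The number of animals behind each library is not given in the sources used here. The quantity counted was the unique molecular identifier (UMI), which marks 1 captured RNA molecule, on the 10x Genomics platform that reads the 3′ end of transcripts.

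The WT library held 34517542 UMIs in 2107 cell barcodes and the Nuc1 library 35794685 UMIs in 1929. Filtering left 1961 cells in WT (median depth 14050 UMIs) and 1780 in Nuc1 (median depth 16567.5 UMIs). No barcode of either library held a UMI of Cryba1 itself, so the genotype labels could not be checked from this gene. The libraries also differed in transcripts of the Y chromosome. Eif2s3y had 3 UMIs in WT and 896 in Nuc1, and Kdm5d had 0 and 204. The libraries shared 2 barcodes. With 1 library per genotype there was no replicate and no test, so every difference between WT and Nuc1 below is a difference between these 2 libraries, in which genotype, animals and handling cannot be told apart. Levels are UMIs per 1000000 UMIs of a cell class (CPM), and all intervals are 95% intervals that cover counting error only.

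Sox2 and Sox9 are related factors of neural progenitors and glia. Sox2 keeps neural cells in an immature state, and Sox9 starts the making of glia and stays on in astrocytes. Pax2 and Vax1 mark the optic stalk, from which the astrocyte precursors of the optic nerve arise, while Nkx2-1 specifies the ventral forebrain, the hypothalamus and the posterior pituitary. The meninges, the connective tissue sheath that continues over the optic nerve, depend on the forkhead factors Foxc1 and Foxc2 and on zinc finger factors of the Zic family. Foxd1 is a forkhead factor of stromal progenitors and of the embryonic retina, and Tbx18 is a T-box factor of mesenchyme and mural cells.

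The cells fell into 10 classes, clustered without the 10 genes. Astrocyte-like cells (107 in WT, 349 in Nuc1) were led by Aqp4, Fabp7, Gfap and Hspb1. Ciliated-like cells (14 and 104) had the cilia genes Ccdc153, Cfap126 and Tmem212 in front. A small oligodendrocyte-lineage-like class held 52 and 10 cells. Fibroblast types made up 5 collagen-rich classes, named here by their leading genes. Ccn3/Rspo3 held 651 and 375 cells, Actg2/Penk 606 and 239, Cldn11/Thbd 289 and 207, Inmt/Cyp26b1 53 and 367, and dividing collagen-rich cells 145 and 75. Macrophage-like cells (21 and 22), a blood-derived or microglial type in which these 10 genes are not known to act, served as background. This background was itself mixed, since 5 of the WT and 14 of the Nuc1 cells held more than 300 CPM of the fibroblast transcripts Col1a1, Col3a1, Dcn and Lum together.

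The label of a Ttr-expressing cell type did not hold for most of the cells it was meant to cover. The cluster in question, of 23 WT and 32 Nuc1 cells, had Ttr, Gldn, Fbln2 and Hsd11b1 among its leading genes, yet its WT cells had 0 UMIs of Ttr, the thyroid hormone carrier transthyretin. In Nuc1, 4 cells of the cluster held 3372 to 13661 Ttr UMIs each, 36137 of the cluster's Ttr UMIs, and the other 28 cells held 4 together. The cluster is therefore called Gldn/Fbln2. Those 4 cells had 0 UMIs of Nkx2-1, 0 of Foxc1, 3 of Sox2 and 4 of Sox9. The astrocyte-like, ciliated-like, oligodendrocyte-lineage-like and Gldn/Fbln2 classes are together called neural below, a grouping that was set by choice. It is least sure for Gldn/Fbln2, where the 9 listed fibroblast markers summed to 8020 CPM in WT and 4879 CPM in Nuc1.

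The promoters of Foxc1 and Foxd1 are shown because these were the forkhead genes with the most UMIs among the members. The promoter set used here (RefSeq, build GRCr8) held a window from 250 bases before to 50 bases after the gene's start for 7 of the 10 members. The window lies at chr17:32844051-32844350 on the minus strand for Foxc1 and at chr2:31436552-31436851 on the plus strand for Foxd1. CG dinucleotides are in capitals, and the sequences run 5′ to 3′.
Foxc1: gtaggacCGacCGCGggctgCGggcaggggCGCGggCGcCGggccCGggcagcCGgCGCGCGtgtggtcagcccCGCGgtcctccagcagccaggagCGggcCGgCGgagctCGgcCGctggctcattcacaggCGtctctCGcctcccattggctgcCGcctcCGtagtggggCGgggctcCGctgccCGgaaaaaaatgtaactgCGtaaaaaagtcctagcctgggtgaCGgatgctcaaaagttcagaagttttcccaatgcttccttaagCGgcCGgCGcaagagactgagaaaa
Foxd1: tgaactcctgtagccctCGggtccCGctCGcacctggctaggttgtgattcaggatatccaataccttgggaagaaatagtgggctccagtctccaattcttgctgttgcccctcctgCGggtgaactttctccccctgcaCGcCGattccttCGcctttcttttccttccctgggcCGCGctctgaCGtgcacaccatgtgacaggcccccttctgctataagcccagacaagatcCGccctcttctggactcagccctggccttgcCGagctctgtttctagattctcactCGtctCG
Foxc1 had 32 CG dinucleotides in this window and Foxd1 14, against a median of 7 over 33469 promoters. Of those promoters, 91.6% had fewer than Foxc1 and 66.5% fewer than Foxd1. The letters of a forkhead motif (TAAACA), a Sox motif (ACAAAG), a T-box motif (TCACACCT) and a TATA box (TATAAA), searched on both strands, occurred in none of the 7 member promoters. Over all promoters the shares with these letters were 13.7%, 18.8%, 1.10% and 14.2%. That promoter set held no window for Sox9, Zic1 and Foxc2, which does not mean that RefSeq lacks these genes.

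Pax2 and Vax1, the factors of the optic stalk, were almost without signal. Pax2 had 0 UMIs in every barcode, which allows a level of up to 0.0887 CPM over the kept WT cells and 0.0866 CPM over the Nuc1 cells. In astrocyte-like cells alone the limits were 1.07 CPM and 0.334 CPM. Vax1 had 3 UMIs in WT, 2 of them in ciliated-like cells and 1 in an oligodendrocyte-lineage-like cell, and 8 in Nuc1, split as 4 in ciliated-like and 4 in astrocyte-like cells. All 11 lay in neural classes, each in a different cell, but they are too few to compare the libraries. A lower level than these limits was not detectable at this depth. The limits cover only reads that the deposited counts assign to Pax2. Whether the 3′ end of the gene was fully annotated there was not checked.

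Sox2 and Sox9 had their highest levels in neural classes, and in 3 of the 4 their differences between the libraries ran in opposite directions. Sox2 stood lower in Nuc1 in each of the 4 neural classes, by 1.58-fold to 1.76-fold. The difference in Gldn/Fbln2 cells was smaller without the 4 Nuc1 cells high in Ttr. It was then 491 CPM in WT against 343 CPM in Nuc1, a log2 ratio of Nuc1 over WT of -0.52. Sox9 stood higher in Nuc1 in astrocyte-like, ciliated-like and Gldn/Fbln2 cells. The neural classes held 97.8% of the Sox2 UMIs of the WT library and 98.5% of those of the Nuc1 library. For Sox9 these shares were 76.6% and 96.8%, and collagen-rich classes held 22.8% of its WT UMIs.

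In astrocyte-like cells Sox2 was at 512 CPM in WT (485 to 539) and 291 CPM in Nuc1 (280 to 303). The log2 ratio, here always of Nuc1 over WT, came to -0.81 (-0.91 to -0.72) in a class whose genes had a median log2 ratio of -0.11. The share of astrocyte-like cells with a Sox2 UMI was 100% and 97.4%, and after thinning every cell to 5000 UMIs it was 90.6% (83.3 to 95.4) and 73.5% (68.5 to 78.1). So both the level and the thinned share were lower in Nuc1, with intervals that did not overlap. In the same cells the summed level of the 8 listed markers of dividing cells was 357 CPM in WT and 61.3 CPM in Nuc1, that of the 9 fibroblast markers 2254 CPM and 940 CPM, and that of the 13 astrocyte markers 44244 CPM and 55430 CPM. The median mitochondrial share was 12.9% and 10.9%, and the part of these values in the Sox2 difference was not tested. Ciliated-like cells had 593 CPM and 375 CPM (log2 ratio -0.66), but only 14 WT cells stood behind the first value. Gldn/Fbln2 cells had 491 CPM and 286 CPM (log2 ratio -0.78), and oligodendrocyte-lineage-like cells 641 CPM and 403 CPM (log2 ratio -0.67). The last Nuc1 value rested on 10 cells and 43 UMIs, of which 19 lay in 1 cell. The order of the 4 classes was the same in both libraries, with the oligodendrocyte-lineage-like class highest and Gldn/Fbln2 lowest. Of the neighbours in that order, ciliated-like and astrocyte-like cells differed beyond counting error in both libraries, and the other pairs did not. The last place of Gldn/Fbln2 in Nuc1 depended on the 4 cells high in Ttr. Without those cells it had 343 CPM of Sox2, above the astrocyte-like level.

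Outside the neural classes Sox2 was seen in few cells. Of 651 WT cells of Ccn3/Rspo3, 0.614% had a Sox2 UMI, and 0.155% after thinning. In macrophage-like cells (median depth 8619 UMIs in WT and 1807.5 in Nuc1, against 25925 and 24424 in astrocyte-like cells) 9.52% and 4.55% of cells had a Sox2 UMI. The level in macrophage-like cells, 57.3 CPM and 40.2 CPM, came from 13 and 3 UMIs, of which 12 and 3 lay in 1 cell of each library, so it is a poor measure of background. The dividing collagen-rich class showed 7.44 CPM and 14.3 CPM of Sox2. There, 28 of 29 WT UMIs and 32 of 33 Nuc1 UMIs came from cells of the cluster that were not themselves rich in collagen transcripts. In this class 144 of 145 WT cells and 70 of 75 Nuc1 cells were rich in them, so very few cells carried these UMIs.

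Sox9 was at 302 CPM (282 to 323) in WT and 355 CPM (343 to 367) in Nuc1 in astrocyte-like cells, a log2 ratio of 0.23 (0.12 to 0.34). Ciliated-like cells had 249 CPM (203 to 304) and 434 CPM (407 to 462), a log2 ratio of 0.80. The thinned shares of ciliated-like cells with a UMI were 85.7% (57.2 to 98.2, from 14 cells) and 85.3% (76.9 to 91.5). Gldn/Fbln2 cells had 112 CPM and 182 CPM. The highest class was astrocyte-like in WT, where its lead of 1.21-fold over ciliated-like cells had an interval that included no difference, and ciliated-like in Nuc1, by 1.22-fold. In the oligodendrocyte-lineage-like class, where Sox2 was highest, Sox9 was at 8.90 CPM in WT, from 7 UMIs.

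Sox9 also had a low level in the collagen-rich classes, which differed between the libraries in 2 of the 5. In Ccn3/Rspo3 cells it was at 13.4 CPM in WT (115 UMIs in 72 cells) and 2.28 CPM in Nuc1 (13 UMIs in 11 cells), a log2 ratio of -2.55 (-3.50 to -1.72). Over 12 alternatives this ratio ran from -3.07 to -1.28, so its size depends on the processing. In Actg2/Penk cells Sox9 was at 11.8 CPM and 5.75 CPM, a log2 ratio of -1.04. That ratio was -0.21 at a clustering resolution of 0.2 and -0.93 with no doublets left out. The thinned shares in Ccn3/Rspo3 were 5.43% and 1.07%, so few cells carried this difference. Sox9 was not lower in Nuc1 in Cldn11/Thbd cells (2.39 CPM and 2.93 CPM) or in dividing cells (8.47 CPM and 10.4 CPM), and in Inmt/Cyp26b1 cells (15.8 CPM and 10.5 CPM) the interval of the ratio included 0. Macrophage-like cells, at 30.9 CPM and 53.6 CPM from 1 cell of each library, lay above the fibroblast levels.

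**Figure D1:**
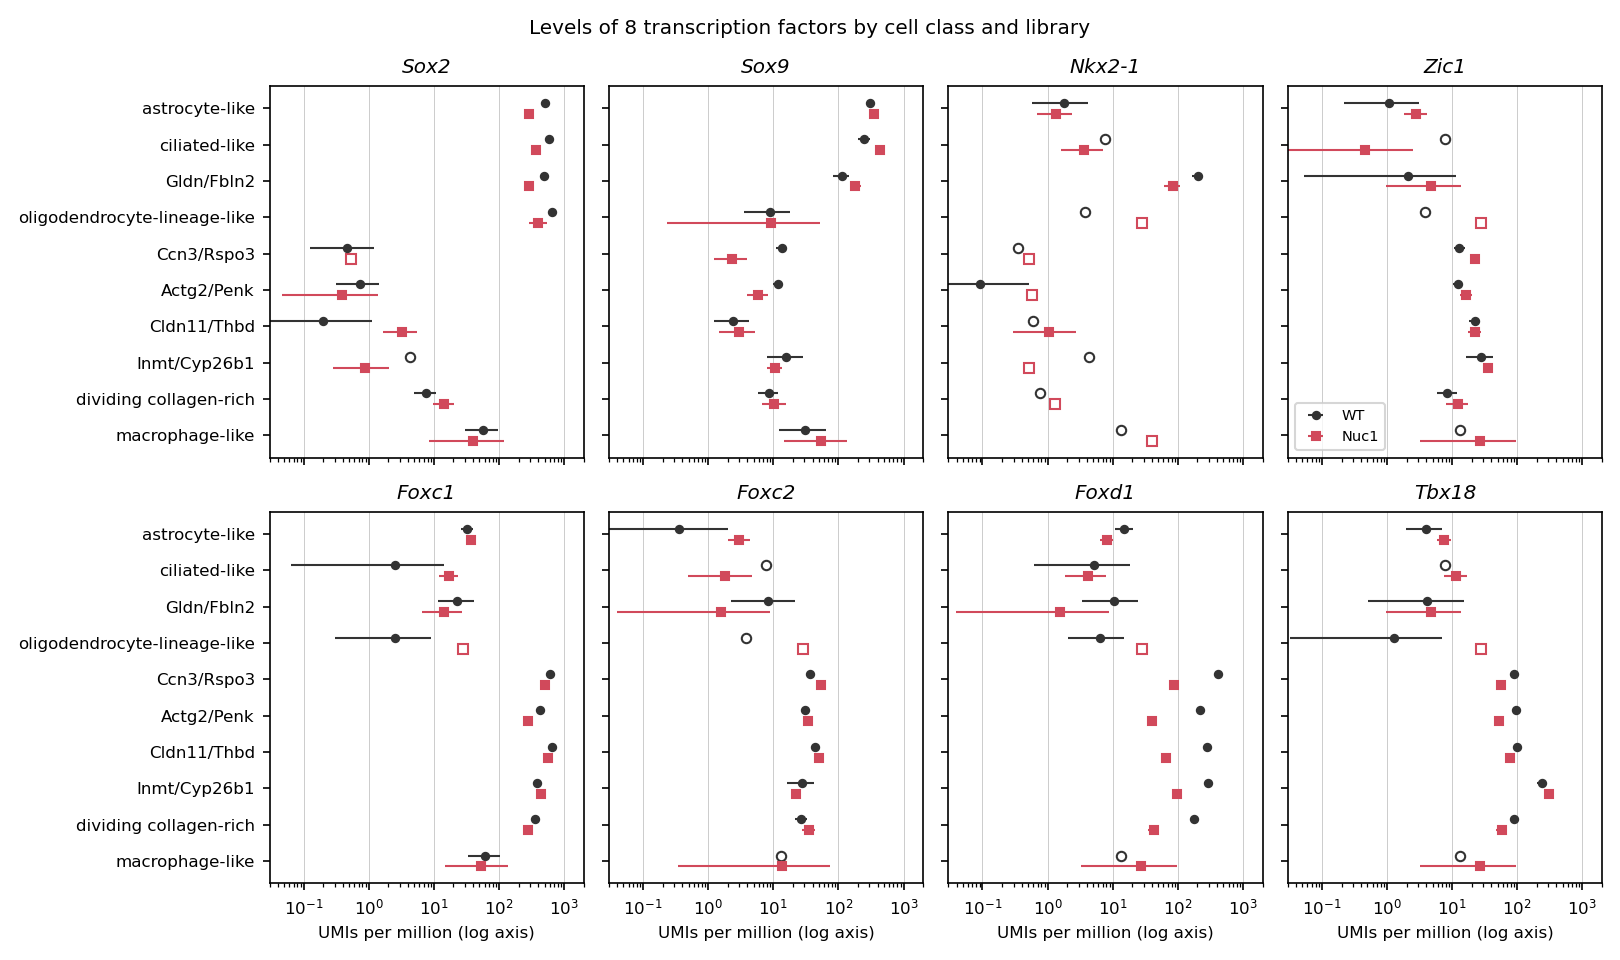
Level of 8 of the 10 genes in each cell class, as CPM on a log axis, in the WT and the Nuc1 library. Points are levels, bars are exact Poisson 95% intervals, and open symbols mark a class with 0 UMIs, drawn at the limit that 3 counts give. Sox2 is high in the 4 neural classes, Sox9 in the neural classes other than the oligodendrocyte-lineage-like one, Nkx2-1 in Gldn/Fbln2 cells, and the remaining genes in the collagen-rich classes.

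Nkx2-1 was nearly restricted to the Gldn/Fbln2 class. It had 97 UMIs there in WT, at 201 CPM (163 to 245), in 21 of 23 cells, and 53 UMIs in Nuc1, at 83.2 CPM (62.4 to 109), in 18 of 32 cells. The class next in order was 113-fold lower in WT and 22.8-fold lower in Nuc1. Elsewhere the gene had 5 and 12 UMIs in astrocyte-like cells, 0 and 8 in ciliated-like cells, 1 in WT cells of Actg2/Penk and 4 in 1 Nuc1 cell of Cldn11/Thbd. Macrophage-like cells had 0 UMIs of it.

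The level of Nkx2-1 in Gldn/Fbln2 cells was lower in Nuc1, with a log2 ratio of -1.27 (-1.78 to -0.77) and thinned shares of 65.2% (42.7 to 83.6) and 23.3% (9.93 to 42.3). Without the 4 Nuc1 cells with high Ttr the Nuc1 level was 101 CPM and the log2 ratio -0.98, which is no longer past 2-fold. Sox2 in the same cells was at 343 CPM in Nuc1 without the 4 cells, and Sox9 at 214 CPM. Collagen transcripts were common in this class, and 14 of 23 WT and 16 of 32 Nuc1 cells held more than 300 CPM of Col1a1, Col3a1, Dcn and Lum together. Nkx2-1 was at 236 CPM and 87.1 CPM in the cells under that limit, so it was no lower in cells with few collagen transcripts. In the whole class the 9 fibroblast markers summed to 8020 CPM in WT and 4879 CPM in Nuc1. The listed markers of Actg2/Penk cells summed to 4477 CPM and 2001 CPM. The 12 cilia markers were higher in Nuc1, at 391 CPM and 782 CPM. The part of these values in the Nkx2-1 difference was not tested.

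Foxc1 and Foxc2, the paired forkhead factors of the meninges, were found in all 5 fibroblast types. Foxc1 had 99.2% of its WT UMIs and 96.2% of its Nuc1 UMIs in these classes, and Foxc2 99.5% and 96.4%. After thinning Foxc1 was seen in a majority of the cells of each fibroblast type and Foxc2 in a minority. The Nuc1 level of Foxc1 was modestly lower over all 5 classes, and that of Foxc2 was slightly higher.

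Foxc1 was highest in Cldn11/Thbd cells, at 657 CPM (635 to 680) in WT and 570 CPM (546 to 594) in Nuc1. Ccn3/Rspo3 cells followed, at 613 CPM and 510 CPM. With no doublets left out this order turned, by very little, over both libraries together. Lower levels were found in Actg2/Penk cells, at 427 CPM and 274 CPM, and in dividing cells, at 356 CPM and 276 CPM. Inmt/Cyp26b1 cells, at 380 CPM in WT and 437 CPM in Nuc1, were the only fibroblast type with a higher Foxc1 level in Nuc1 (log2 ratio 0.20, 0.02 to 0.39). The log2 ratio was -0.64 in Actg2/Penk, the lowest of the 5, and -0.27 over all 5 classes (-0.31 to -0.23). Thinned shares lay between 72.4% and 94.7% in WT and between 66.7% and 89.3% in Nuc1.

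Foxc2 was at 43.9 CPM in WT and 50.4 CPM in Nuc1 in Cldn11/Thbd cells, and at 36.9 CPM (32.9 to 41.2) and 54.2 CPM (48.4 to 60.6) in Ccn3/Rspo3 cells. The latter log2 ratio was 0.56 (0.32 to 0.79). In Inmt/Cyp26b1 cells, at 27.3 CPM and 22.3 CPM, the interval of the ratio included 0. The classes of highest level were Cldn11/Thbd in WT and Ccn3/Rspo3 in Nuc1, and in neither library did these classes differ beyond counting error. Thinned shares of cells with a Foxc2 UMI ran from 12.4% to 22.2% over the 5 classes and both libraries.

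The UMIs of Foxc1 in glial classes lay mostly in cells that also held collagen transcripts. In astrocyte-like cells Foxc1 was at 32.4 CPM in WT and 36.6 CPM in Nuc1. Of its 91 and 328 UMIs there, 10 and 34 came from cells with at most 300 CPM of the 4 collagen-class transcripts, in which its level was 4.39 CPM and 4.86 CPM. Cells over that limit numbered 17 of 107 and 62 of 349. The ciliated-like class had 1 UMI of Foxc1 in WT and 37 in Nuc1, 26 of the latter in 5 collagen-rich cells. In macrophage-like cells Foxc1 was at 61.7 CPM and 53.6 CPM, from 14 and 4 UMIs, and 23.8% and 9.09% of those cells had a UMI. Of those 14 and 4 UMIs, 2 and 3 lay in cells that were not collagen-rich. The part of free RNA or of doublets in the Foxc1 values of either class was not tested. Among oligodendrocyte-lineage-like cells 3.85% had a Foxc1 UMI in WT, at a median depth of 12003 UMIs.

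**Figure D2:**
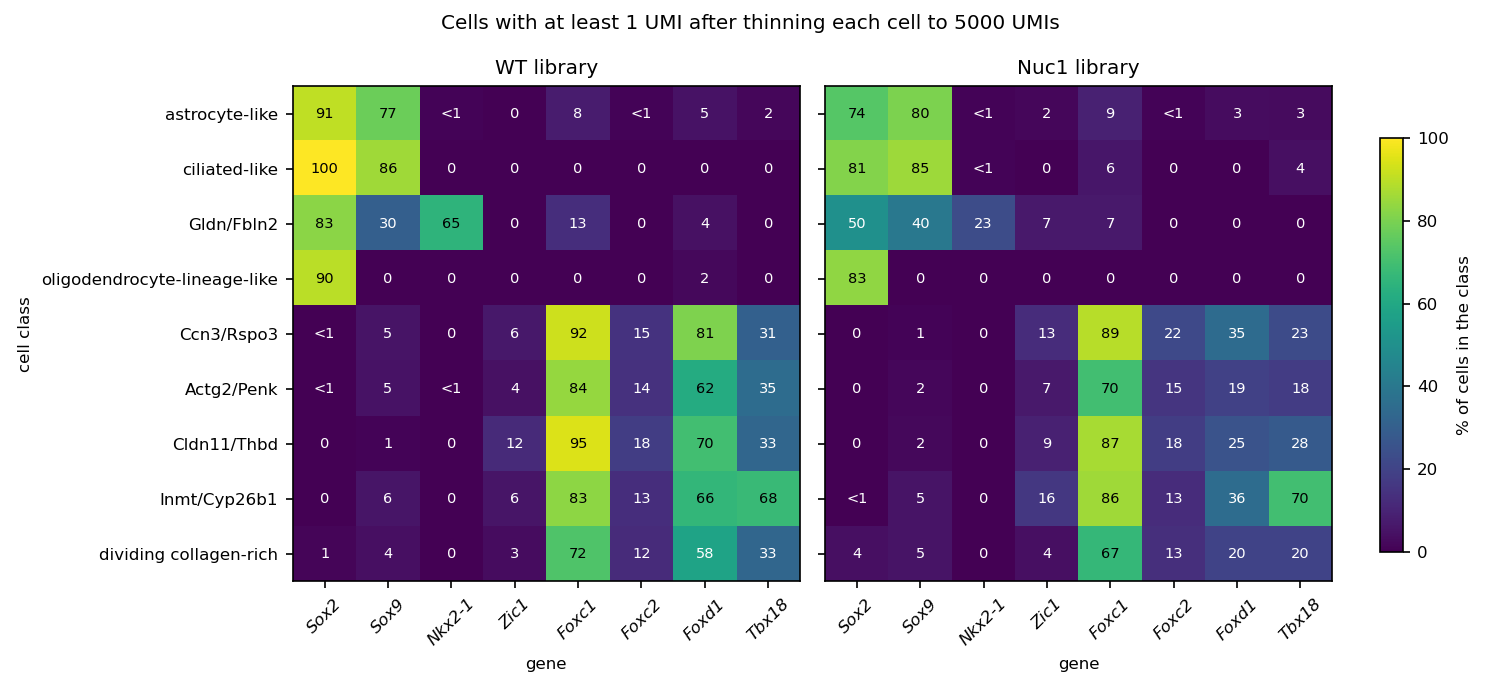
Percent of cells with at least 1 UMI of each gene after thinning every cell to 5000 UMIs, by cell class and library, with macrophage-like cells left out for their low number. Foxc1 is seen in 66.7% to 94.7% of the cells of each fibroblast type, Foxd1 in 57.9% to 80.6% in WT and 19.5% to 35.5% in Nuc1, Sox2 in the neural classes, and Sox9 in those other than the oligodendrocyte-lineage-like class.

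Foxd1 showed the largest difference between the libraries of any member with at least 100 UMIs in a class, other than Sox9 in Ccn3/Rspo3 cells. It was lower in Nuc1 in all 5 fibroblast types, by 3.03-fold to 5.37-fold. Over the 5 classes together it was at 284 CPM in WT and 70.2 CPM in Nuc1, a log2 ratio of -2.02 (-2.10 to -1.94). Only 0.777% of the genes with at least 100 UMIs had a lower ratio over these classes.

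In Ccn3/Rspo3 cells Foxd1 had 3583 UMIs in WT and 489 in Nuc1, which is 417 CPM (403 to 431) against 85.8 CPM (78.4 to 93.8). Inmt/Cyp26b1 cells had 291 CPM (253 to 334) and 96.1 CPM (88.2 to 104). Cldn11/Thbd cells had 284 CPM (270 to 300) and 65.6 CPM (57.6 to 74.3). The intervals of the libraries were far apart in each of these classes. Actg2/Penk cells had 218 CPM and 40.6 CPM, and dividing cells 176 CPM and 42.5 CPM. The highest class was Ccn3/Rspo3 in WT and Inmt/Cyp26b1 in Nuc1, where its lead of 1.12-fold over Ccn3/Rspo3 had an interval that included no difference.

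The log2 ratios of Foxd1 were -2.28 (-2.42 to -2.14) in Ccn3/Rspo3, -2.42 (-2.63 to -2.22) in Actg2/Penk and -2.12 (-2.32 to -1.92) in Cldn11/Thbd. They were -1.60 (-1.83 to -1.36) in Inmt/Cyp26b1 and -2.05 (-2.37 to -1.74) in dividing cells. In each class between 0.286% and 0.636% of the genes ranked had a lower ratio. Thinned shares in Ccn3/Rspo3 were 80.6% (77.4 to 83.6) in WT and 35.0% (30.2 to 40.1) in Nuc1, and in Actg2/Penk 61.5% and 19.5%. The lower level thus went with fewer cells holding a UMI of Foxd1, and the direction was the same in every fibroblast type.

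Several other values moved with Foxd1, and their part in it was not tested. The summed level of Col1a1, Col3a1, Dcn and Lum was lower in Nuc1 in the same classes, at 11051 CPM against 5393 CPM in Ccn3/Rspo3 and 12213 CPM against 9067 CPM in Inmt/Cyp26b1. Ccn3 and Rspo3 together were at 3666 CPM in WT and 997 CPM in Nuc1 in Ccn3/Rspo3 cells. The listed markers of the next types are each given in their own class. Those of Actg2/Penk cells were at 5310 CPM in WT and 3321 CPM in Nuc1. Those of Cldn11/Thbd cells were level, at 1319 CPM in each library. Those of Inmt/Cyp26b1 cells were higher in Nuc1, at 1164 CPM and 2498 CPM. UMIs of Eif2s3y or Kdm5d were present in 411 Nuc1 cells and 1 WT cell. Without those cells the log2 ratio of Foxd1 was -2.003 over the 5 classes and -2.34 in Ccn3/Rspo3. Cells without such a UMI can still come from male animals, so this does not separate the sexes.

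**Figure D3:**
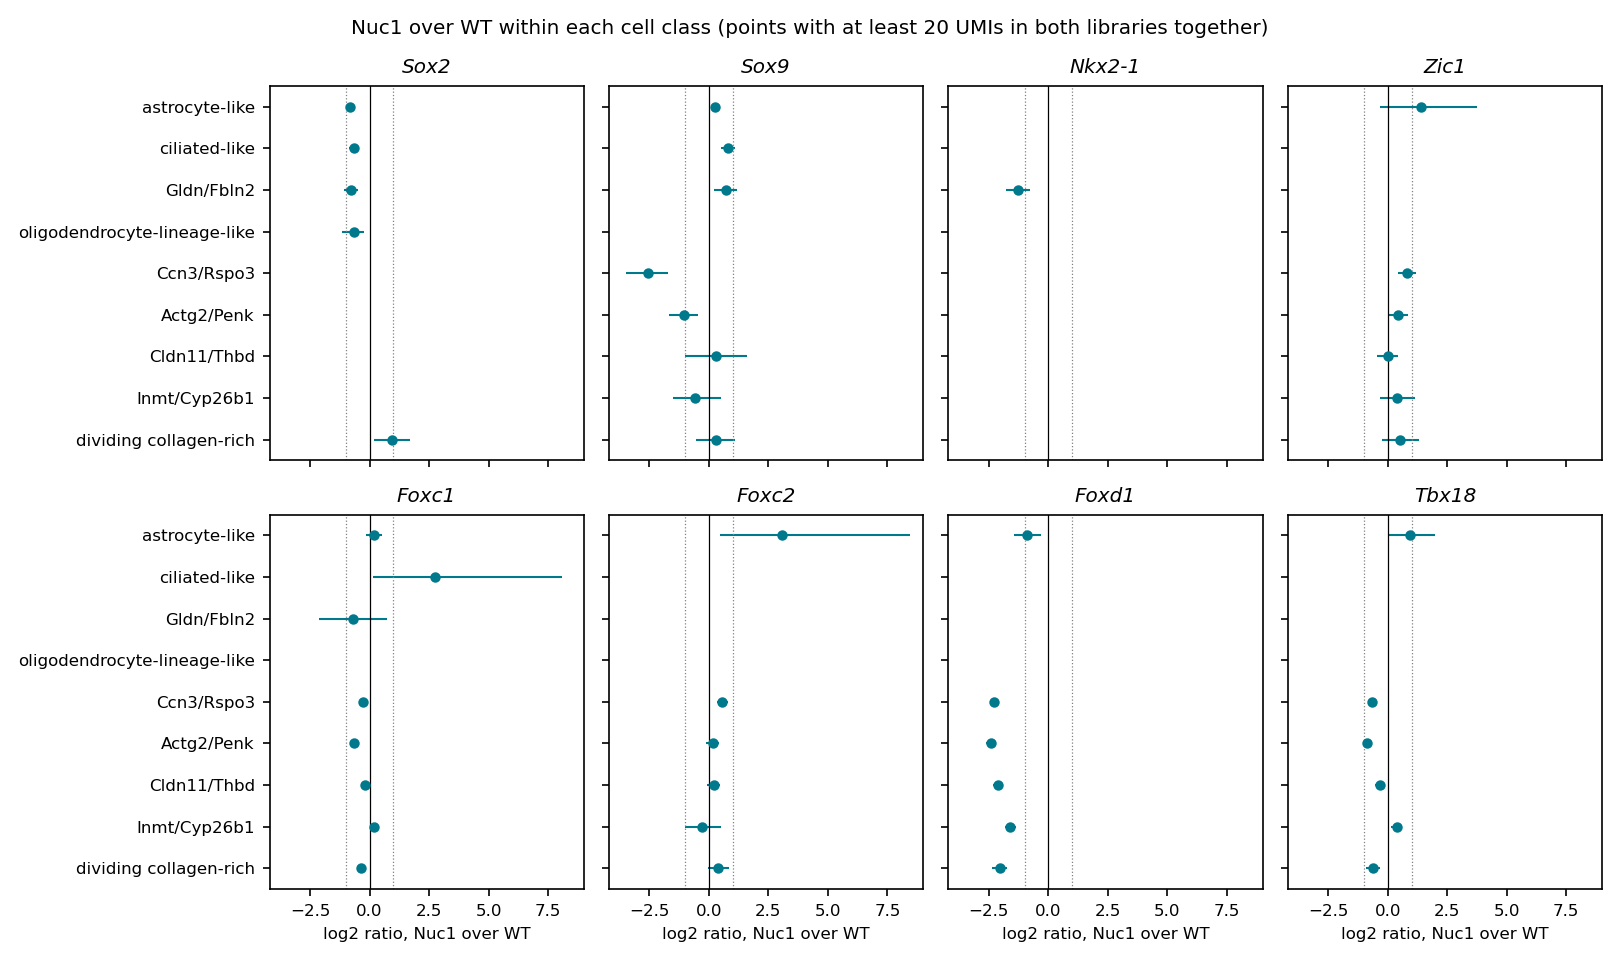
Log2 ratio of Nuc1 over WT for each member and class with at least 20 UMIs in total and UMIs in both libraries, with exact 95% intervals for counting error. Dotted lines mark 2-fold in either direction, and Foxd1 lies below the lower line in all 5 fibroblast types.

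Tbx18 and Zic1 shared their highest class, Inmt/Cyp26b1, a fibroblast type with 53 WT and 367 Nuc1 cells. Tbx18 was at 238 CPM (203 to 277) in WT and 308 CPM (294 to 323) in Nuc1 there, 2.43-fold and 3.94-fold above Cldn11/Thbd, the class next in order. The thinned shares of Inmt/Cyp26b1 cells with a Tbx18 UMI were 67.9% (53.7 to 80.1) and 69.7% (64.7 to 74.3). Tbx18 marked the same fibroblast type in both libraries, with much the same share of cells.

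In the remaining fibroblast types Tbx18 lay lower in Nuc1. Its levels were 89.4 CPM and 57.2 CPM in Ccn3/Rspo3 (log2 ratio -0.64), and 95.9 CPM and 53.1 CPM in Actg2/Penk (log2 ratio -0.85). In Cldn11/Thbd cells they were 98.0 CPM and 78.1 CPM (log2 ratio -0.33), and in dividing cells 89.1 CPM and 57.3 CPM (log2 ratio -0.64). Inmt/Cyp26b1 had a log2 ratio of 0.37 (0.14 to 0.61), opposite in sign. Over all 5 classes together the ratio was 0.34 (0.27 to 0.42), higher in Nuc1 although 4 of the classes were lower. The pooled cells held 53 Inmt/Cyp26b1 cells in WT and 367 in Nuc1. In astrocyte-like cells Tbx18 was at 3.92 CPM and 7.47 CPM, and in ciliated-like cells it had 0 and 25 UMIs, of which 2 lay in cells that were not collagen-rich.

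Zic1 was a low-level gene of the same classes. Inmt/Cyp26b1 cells had 27.3 CPM (16.4 to 42.6) in WT, from 19 UMIs, and 35.1 CPM (30.4 to 40.4) in Nuc1, from 200 UMIs, and the interval of the ratio included 0. Cldn11/Thbd cells had 22.3 CPM and 22.1 CPM, and in WT the lead of Inmt/Cyp26b1 over them was within counting error. Ccn3/Rspo3 cells had 12.9 CPM (10.6 to 15.6) and 22.8 CPM (19.1 to 27.1), a log2 ratio of 0.82 (0.44 to 1.20). As reported, this was the class in which Zic1 differed most among those with at least 100 UMIs. After thinning, the log2 ratio in Inmt/Cyp26b1 cells was 1.61. In Ccn3/Rspo3 cells it ran from 0.37 to 1.01 over 12 alternatives, so this order depends on the processing. Over the 5 classes Zic1 was at 14.0 CPM and 23.2 CPM, a log2 ratio of 0.73 (0.54 to 0.92), again in pools with unequal numbers of Inmt/Cyp26b1 cells. The log2 ratio was 0.43 in Actg2/Penk and 0.52 in dividing cells. Zic1 had 3 and 25 UMIs in astrocyte-like cells, 1 and 6 of them in cells that were not collagen-rich.

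The members can be set against all genes of each class. A gene was counted as different when its CPM differed at least 2-fold in either direction, with at least 20 UMIs in the class. In astrocyte-like cells 2 of 7 members counted (Zic1 and Foxc2, from few UMIs), against 11.0% of all genes. In ciliated-like cells 2 of 4 counted (Foxc1 and Tbx18), against 12.5%. All 4 of these genes reached 20 UMIs only through the Nuc1 library, where they were higher, so nothing is read from these counts. In Gldn/Fbln2 cells 1 of 4 counted (Nkx2-1, lower in Nuc1), against 724 of 6016 genes in either direction and 5.83% of all genes in the lower direction. Without the 4 Nuc1 cells high in Ttr the log2 ratio of Nkx2-1 was -0.98, and it no longer counted. In Ccn3/Rspo3 cells 2 of 6 counted (Foxd1 and Sox9), against 9.75%, and in Actg2/Penk cells the same 2 of 6, against 9.03%. The Actg2/Penk count depends on the processing. Over 12 alternatives the log2 ratio there reached -1.48 for Tbx18 and -1.18 for Foxc1, past 2-fold, and -0.21 for Sox9, within it. Foxd1 alone counted in Cldn11/Thbd (1 of 6, against 9.12%), in Inmt/Cyp26b1 (1 of 6, against 13.2%), in dividing cells (1 of 7, against 7.17%) and over all 5 fibroblast classes (1 of 7, against 11.8%). With so few members these shares describe the genes named and say nothing of the group. For 5 of the 8 members with enough UMIs (Sox2, Nkx2-1, Zic1, Foxc1 and Tbx18) the highest class was the same in both libraries, against 45.5% of all genes.

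Genes with the most similar pattern were sought by Pearson's r of log2(CPM + 5) over 20 points, each a class in a library, among 9691 genes. The points share libraries and depth, so the r values are descriptions without a test. Sox2 was most like Map2 (r = 0.99), Gpr37l1 (0.98) and Metrn (0.98), and Sox9 most like Slc14a1 (0.97), Chi3l1 (0.96) and Myh11 (0.95). Nkx2-1 was most like Pdlim3 (0.91), Hsd11b1 (0.91) and Bmp2 (0.86). Slc14a1, a urea transporter, was at 180 CPM in WT and 252 CPM in Nuc1 in astrocyte-like cells. Foxc1 was most like Ctsk (0.98), Clmp (0.98) and Cd248 (0.97), and Foxc2 most like Dock5 (0.97), the forkhead gene Foxp2 (0.97) and Bnc2 (0.96). Foxd1 was most like Nid1, Mrgprf and Tek (0.94 each). Tbx18 was most like Tfap2b (0.98), Lamb1 (0.97) and Nid1 (0.96), and Zic1 most like St6galnac2 (0.96), Arhgap28 (0.96) and Osr1 (0.95). Tfap2b, an AP-2 factor, was at 481 CPM in WT and 421 CPM in Nuc1 in Inmt/Cyp26b1 cells and at 97.3 CPM and 34.6 CPM in Ccn3/Rspo3 cells.

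Members were also counted in the same cells after thinning, for 16 pairs in the classes where independence gave at least 10 cells with both, 80 counts in all. The median ratio of observed to expected cells was 1.03. The lowest ratio was 0.68, for Foxd1 with Tbx18 in Nuc1 cells of Cldn11/Thbd (10 cells), and the highest 1.38, for Foxc1 with Foxc2 in WT dividing cells. Foxc1 and Foxd1 were both seen in 482 of 645 WT cells of Ccn3/Rspo3, where independence gave 480, and in 121 of 374 Nuc1 cells, where it gave 117. Sox2 and Sox9 were both seen in 73 of 106 astrocyte-like cells in WT and in 208 of 344 in Nuc1, where it gave 74.3 and 203. Where a gene is in most cells of a class, as Foxc1 is in the WT fibroblasts and Sox2 in the ciliated-like cells, the ratio can hardly depart from 1, so no more than the counts is read from these pairs.

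Other transcription factors of the same fields were read from lists of 96 symbols, of which 89 were in the tables and 59 had at least 20 UMIs. Of the 59, 24 were highest in a neural class and 35 in a collagen-rich one, and 36 had the same highest class in both libraries. Among the 55 with at least 20 UMIs in the class that was highest over both libraries together, 5 were at least 2-fold higher there in Nuc1 (Tbx3, Zic2, Foxf1, Meox2 and Nkx6-2) and 7 at least 2-fold lower (Hes1, Twist1, Six2, Msx2, Runx1, Heyl and Nr4a2), while 16.3% of all genes were past 2-fold in either direction by the same rule. The intervals of Tbx3 (4 and 79 UMIs) and Foxf1 (2 and 59 UMIs) included no difference, and Nkx6-2 had 0 and 39 UMIs in ciliated-like cells. These 3 genes, and Heyl (23 and 1 UMIs), reached 20 UMIs only through the library where they were high, and Six2 rested on 18 and 3 UMIs, so nothing is read from the number of listed genes past 2-fold. Zic4 and Zic5, relatives of Zic1, were each highest in Inmt/Cyp26b1 cells in both libraries, like Zic1 itself. The WT level of Zic5 there rested on 5 of its 166 UMIs, so its place in WT is unsure. Zic2 was at 17.2 CPM in WT and 35.8 CPM in Nuc1 in these cells and at 19.9 CPM and 37.3 CPM in Cldn11/Thbd cells, its highest class in each library. Zic4, the neighbour of Zic1 in the genome, was at 91.8 CPM in WT and 150 CPM in Nuc1 in Inmt/Cyp26b1 cells.

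Some listed factors of the neural classes are given as examples. Lhx2, which patterns the eye field and forebrain, was at 141 CPM in WT astrocyte-like cells and at 123 CPM in Nuc1. Ciliated-like cells had Rfx2, a regulator of cilia genes, at 104 CPM and 94.6 CPM, and Myb, which acts in multiciliated cells, at 115 CPM and 81.4 CPM. Of the eye field list, Vax2, Rax and Otx2 had 0 UMIs, while Pax6 was at 27.4 CPM in WT and 26.5 CPM in Nuc1 in astrocyte-like cells.

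In the fibroblast types some listed factors were lower in Nuc1 together with Foxd1. Hes1, a target of Notch signals, was at 637 CPM in WT and 112 CPM in Nuc1 in Ccn3/Rspo3 cells and at 242 CPM and 69.2 CPM in Inmt/Cyp26b1 cells. Nr4a2, an immediate-early nuclear receptor, was at 142 CPM and 23.9 CPM in Ccn3/Rspo3. Twist1, a helix-loop-helix factor of mesenchyme, was at 165 CPM and 63.2 CPM there. Their part in the values of Foxd1 was not tested. Osr1 was at 343 CPM and 430 CPM and Prrx1 at 175 CPM and 214 CPM in Inmt/Cyp26b1 cells, and Tbx15 was at 169 CPM and 122 CPM in Ccn3/Rspo3.

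**Figure D4:**
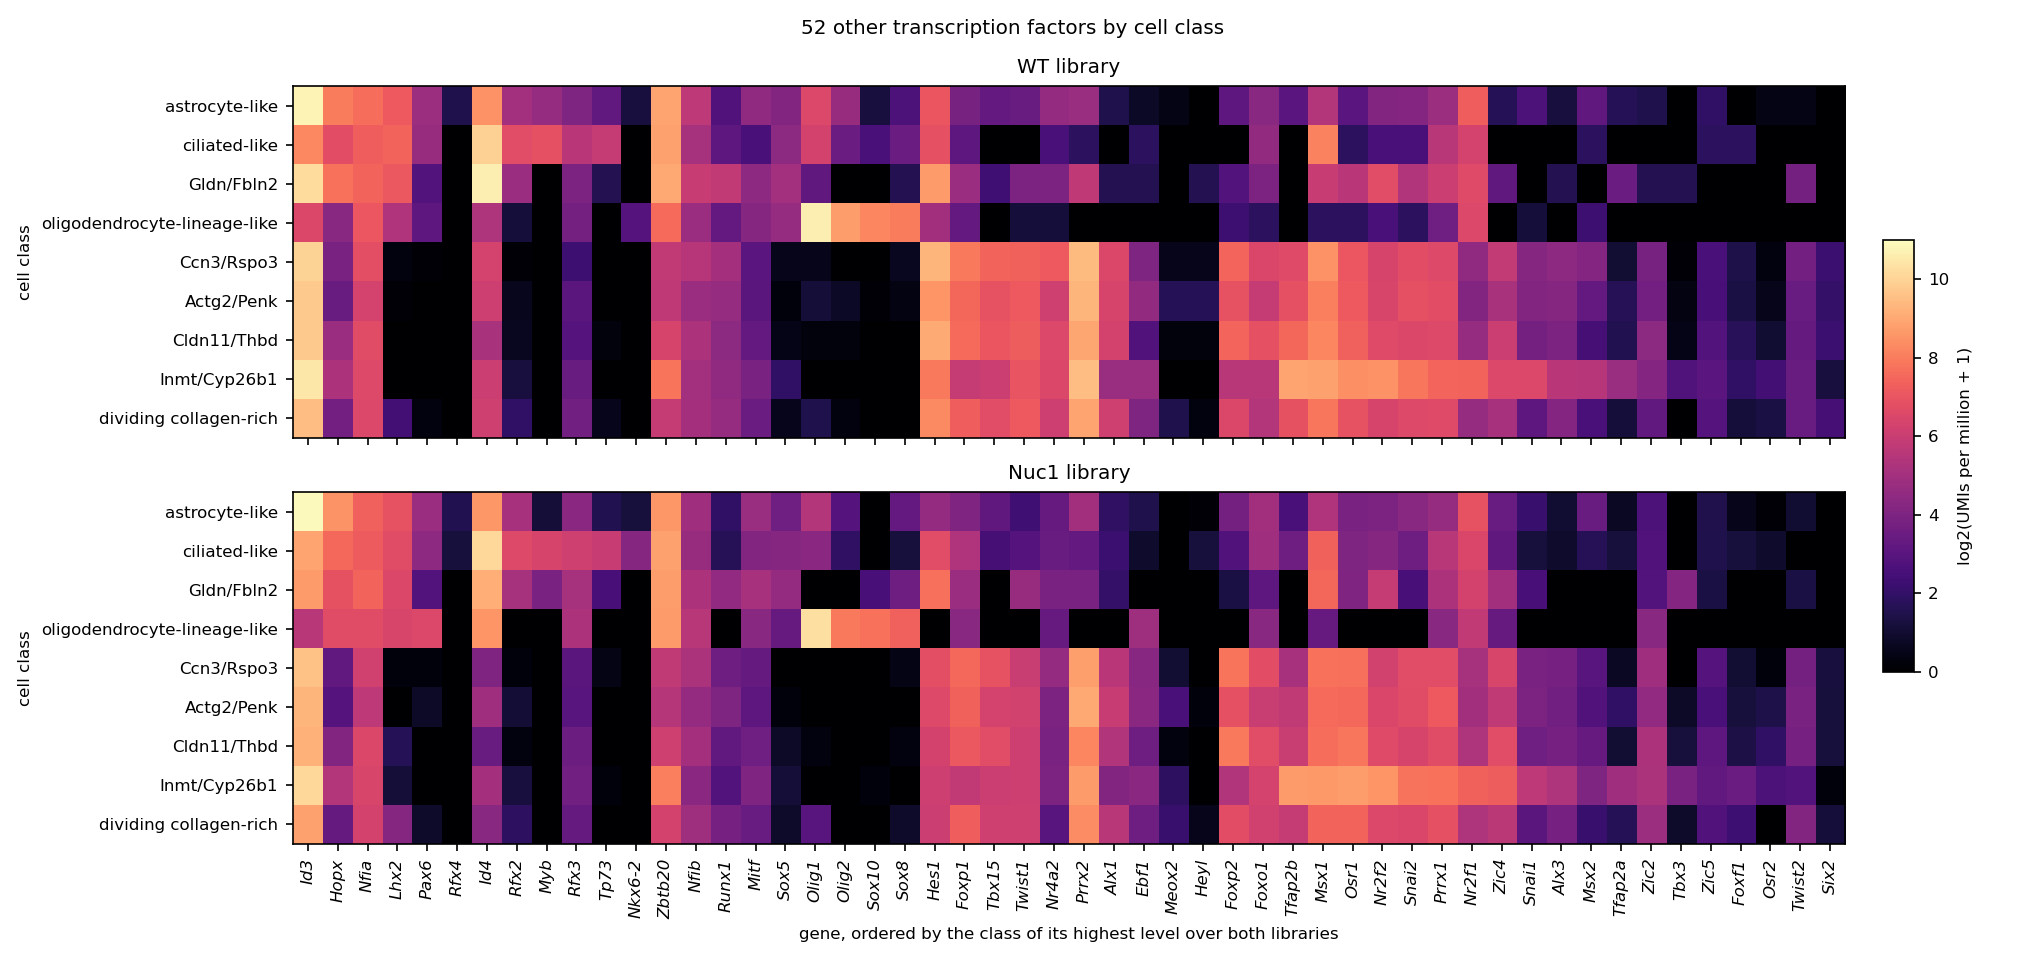
Levels of 52 further listed transcription factors, of the 55 with at least 20 UMIs in the class that was highest over both libraries together, shown as log2(CPM + 1) by cell class and library. Brighter cells are higher levels. Zic4 and Zic5 are highest in the Inmt/Cyp26b1 row, Zic5 in WT from 5 UMIs only. Hes1 is at 637 CPM in WT and 112 CPM in Nuc1 in the Ccn3/Rspo3 row.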

How the data were processed

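Per the labels, cells were captured with the 10x Genomics 3′ kit. The submitters' processing notes name Cell Ranger 3.1.0, STAR 2.7, and Seurat 3.1.0 and 3.1.1, and the genome build is not given in the sources used here. The authors deposited raw UMI counts per gene and cell barcode for each library, and these counts were used unchanged. Cells under 500 genes or with over 20% of UMIs from 13 mitochondrial genes were left out, and Scrublet (expected doublets 2%) removed 7 WT and 13 Nuc1 cells. Libraries were joined by anchor integration in Seurat 5.3.0 (2000 variable genes without the 10 members, 30 principal components, resolution 0.5). Classes called by a cell type, and the dividing class, had at least 3 fixed markers among their 10 leading genes, and the other classes are called by a pair of their leading genes. Of gene symbols, 99 were duplicated. UMIs were summed by class and library, with exact Poisson, binomial (Clopper-Pearson) and conditional intervals at 95% (scipy 1.17.1). PCR and capture errors are not covered. A count of 0 is given the limit of 3 counts. A cell counted as collagen-rich above 300 CPM of Col1a1, Col3a1, Dcn and Lum together.

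The genes named are the 10 members, the 3 genes most like each, the listed transcription factors and the class markers. The members and lists were chosen with earlier results of these data known. The interval scripts were tested on simulated data. Alternatives changed the filters, doublet removal, clustering, integration and depth (11 of them), and 2 more were chosen after seeing the data. Trp73 is the mouse symbol of Tp73, which was listed under both. Nfix, Foxj1, Sox21, Foxf2, Foxq1 and Foxd3 were not analysed here, and some listed genes are not reported here.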

Additional observations from a re-analysis of the deposited data

Results flagged for a closer look

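For 4 members the log2 ratio of Nuc1 over WT had opposite signs in 2 classes with intervals that excluded 0 in both. With 1 library per genotype these differences between classes were not tested. Sox2 had 0.94 in dividing collagen-rich cells, from 29 and 33 UMIs that lay almost wholly in cells poor in collagen transcripts, and -0.81 in astrocyte-like cells. In that dividing class 144 of 145 WT cells and 70 of 75 Nuc1 cells were rich in collagen transcripts. Very few cells thus carried its Sox2 UMIs, and nothing is read from the opposite signs of Sox2. Sox9 had 0.80 in ciliated-like cells and -2.55 in Ccn3/Rspo3 cells. Foxc1 had 2.73 in ciliated-like cells, from 1 and 37 UMIs, and -0.64 in Actg2/Penk cells. Of the 37 UMIs, 26 lay in 5 collagen-rich cells, and the first value was 1.04 without collagen-rich cells and 0.25 at resolution 0.2, where the class also took in the Gldn/Fbln2 cells. Foxc1 reached 20 UMIs in ciliated-like cells only through the Nuc1 library, where it was higher, so nothing is read from its opposite signs. Tbx18 had 0.37 in Inmt/Cyp26b1 cells and -0.85 in Actg2/Penk cells.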

How the results depend on the processing

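Of the values for the main classes of each gene, 84 under the alternatives stayed inside the interval of the reported value and 4 moved out of it. These 4 were Sox9 in ciliated-like cells, 1.12 at resolution 0.2 (where the class also took in the Gldn/Fbln2 cells) and 0.41 after thinning, and after thinning also Zic1 (1.61) and Tbx18 (0.10) in Inmt/Cyp26b1 cells. Of the remaining values 536 stayed, 53 moved and 6 changed sign where the interval of the reported value excluded 0. In 18 further cases the sign changed where that interval included 0. Sox2 turned to -1.62 in dividing and -1.56 in all collagen-rich cells when the libraries were merged without integration. Foxc2 in astrocyte-like cells turned to -0.18 at 10% mitochondrial UMIs and -0.11 after thinning. Over both libraries the log2 ratio of ciliated-like over astrocyte-like Sox9 was -0.057 with that merged class, and that of Cldn11/Thbd over Ccn3/Rspo3 for Foxc1 was -0.0031 with no doublets left out. The causes were not tested. Foxd1 kept its direction in all alternatives run, from -2.04 to -1.98 over the 5 fibroblast classes. Nkx2-1 in Gldn/Fbln2 cells ranged from -1.57 to -0.98, the latter without the 4 cells high in Ttr, a choice made after seeing the data. At 10% mitochondrial UMIs 27 WT and 176 Nuc1 astrocyte-like cells remained, and no ciliated-like, Gldn/Fbln2, oligodendrocyte-lineage-like or Cldn11/Thbd class formed. Cldn11/Thbd, the class with the highest Foxc1, also did not form without integration or at resolution 0.2, where Gldn/Fbln2 and macrophage-like classes were missing too. No paired analysis was possible because there was only 1 library of each genotype. Depth limits what can be said of Pax2 and Vax1 and of the small classes.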

Other observations

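Gldn/Fbln2 cells also held Six3 and Six6, homeobox factors of the eye field and the ventral forebrain, which were singled out after their values were seen. Six3 had 17 UMIs there in WT and 1 in Nuc1, and Six6 had 13 and 5.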
